A study of Mus musculus with 2 samples.

Results

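Angiopoietins, their Tie receptors, the phosphatase of these receptors and 2 angiopoietin-like proteins were examined in endothelium sorted from normal C57BL/6 mouse brain vasculature. Cells carrying CD31 were separated by FACS into a Prom1+ (CD133+) and a Prom1- (CD133-) population, and RNA of each was measured on 1 Affymetrix mouse expression array. The mice carried no label of treatment or of another genotype, and neither their age nor how many gave RNA to an array is stated in the sources used here. Members were all probe sets annotated to exactly 1 of 8 genes, *Angpt1*, *Angpt2*, *Angpt4*, *Tek*, *Tie1*, *Ptprb*, *Angptl2* and *Angptl4*. This gave 13 probe sets of 7 genes, out of 45101 probe sets and 18194 genes in all. No probe set is annotated to *Angptl2*, a secreted angiopoietin-like protein, and it was not analysed here.

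Angiopoietins are secreted ligands of the endothelial receptor tyrosine kinase Tie2, encoded by *Tek*. Angiopoietin 1, made mainly by mural cells around the vessel, activates Tie2 and favors quiescent, tight vessels, whereas angiopoietin 2 is made and stored by endothelium and in many settings opposes it. Tie1 is a related receptor with no ligand of its own class that modulates Tie2, and the vascular endothelial phosphatase encoded by *Ptprb* removes phosphate from Tie2. Angiopoietin-like 4 does not bind Tie2. It inhibits lipoprotein lipase and is induced by fatty acids and by low oxygen.

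The deposited values are log2 of each MAS5 signal over the median signal of its own array, and signals are given below in units of that median. Signals of different probe sets are not comparable as levels of different genes. A signal under a floor of 1.67 units was treated as not measured and raised to the floor. This floor stands for 100 on the authors' scale with its target of 500, averaged over both arrays. Their trimmed means differ, so it is exact for neither array. A difference was counted when the floored signals were at least 2-fold apart, with a bound given where 1 signal lay under the floor and nothing where both did. Since each population was measured once, the spread between samples is unknown, no fold could be checked against it and no test was made. The only error measured within these arrays is the SD of 0.54 in log2 ratio between probe sets of 1 gene, from 3930 genes, which says nothing of the spread between mice.

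The sort genes and marker genes were read first. The CD31 gene *Pecam1* had 48.2 units in the Prom1- array against 69.2 in the Prom1+ array. *Prom1* itself had 196 units in the array labelled Prom1- against 159 in that labelled Prom1+, so the transcript does not separate the arrays in the direction of the sort, and the names used here are those of the labels. All 10 endothelial markers were measured on both arrays, and 1 of them differed by 2-fold, being higher in Prom1+ cells. At the median, probe sets measured in both populations were 1.58-fold higher in Prom1+ cells. This shift was largest at middle signals and turned negative at the highest. Each member is therefore also set beside the 1000 probe sets nearest to it in rank of mean signal. At the top of the range these are the brightest others, not centered on the member. Over all measured genes 3045 were higher by 2-fold and 515 lower, and with equal trimmed means 865 were higher and 863 lower.

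The promoters of the receptor genes *Tek* and *Tie1* and of *Angpt4* are shown because both receptors were far above the floor on both arrays and *Angpt4* was under it on both. They run from 250 bases before to 50 bases after the annotated start (RefSeq, GRCm38.p6), 5′ to 3′ on the strand of the gene. Of the 8 genes 4 had a promoter in the table used, and those of *Angpt1*, *Angpt2*, *Ptprb* and *Angptl4* are not shown. Capitals mark GGAA on either strand, the core of sites for ETS factors, a family known to act in endothelial genes, and TATAAA on either strand, the core of a TATA box.
*Tek*, chr4:94739039-94739338, plus strand: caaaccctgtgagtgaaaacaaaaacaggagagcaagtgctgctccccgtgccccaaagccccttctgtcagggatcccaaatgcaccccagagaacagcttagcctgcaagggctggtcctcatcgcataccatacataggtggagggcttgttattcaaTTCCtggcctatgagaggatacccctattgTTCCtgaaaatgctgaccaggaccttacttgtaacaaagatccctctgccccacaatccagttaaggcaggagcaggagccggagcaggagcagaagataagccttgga
*Tie1*, chr4:118489800-118490099, minus strand: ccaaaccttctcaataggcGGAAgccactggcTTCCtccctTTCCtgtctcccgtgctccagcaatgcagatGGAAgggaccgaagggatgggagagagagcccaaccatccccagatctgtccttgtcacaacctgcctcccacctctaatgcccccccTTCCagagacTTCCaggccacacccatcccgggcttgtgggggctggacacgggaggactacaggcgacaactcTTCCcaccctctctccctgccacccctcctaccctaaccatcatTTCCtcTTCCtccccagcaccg
*Angpt4*, chr2:151910957-151911256, plus strand: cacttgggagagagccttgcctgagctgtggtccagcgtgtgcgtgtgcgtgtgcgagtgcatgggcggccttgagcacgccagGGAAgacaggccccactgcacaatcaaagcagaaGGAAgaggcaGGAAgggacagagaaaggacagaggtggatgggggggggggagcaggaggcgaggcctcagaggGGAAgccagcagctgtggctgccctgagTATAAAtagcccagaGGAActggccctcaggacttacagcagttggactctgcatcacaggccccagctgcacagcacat
The *Tie1* window held 9 matches to GGAA, a number reached by 1.59% of 32851 promoter windows of the same length. The *Tek* window held 2 matches, a number reached by 84.6% of windows, and the *Angpt4* window held 5, reached by 28.6%. At least 1 match was present in 96% of all windows. TATAAA was found once in the *Angpt4* window, at -30 from the start, where 13.6% of all windows hold it anywhere, and in neither receptor window. The 2 motifs do not overlap in these windows. These are matches of letters and were not tested as binding sites.

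Transcripts of the receptor complex were bright and close to equal in both populations. *Tek* was measured by 1 probe set, at 192 units in Prom1- cells against 169 in Prom1+ cells, 1.13-fold lower in the latter. *Tie1* had 70.5 against 89.1 units by its single probe set, 1.26-fold higher. *Ptprb*, the phosphatase, had 170.5 against 157 units by its brightest probe set, 1.09-fold lower. The log2 ratios of these 3 genes, -0.18, 0.34 and -0.12, did not exceed the SD of 0.54 given above.

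The other *Ptprb* probe sets gave the same picture. One had 144 against 133 units, 1.09-fold lower, and the dim one had 7.50 against 7.31 units, 1.03-fold lower. The dim probe set lay under the median log2 ratio of its surroundings, 0.82, while the bright ones lay close to theirs. *Tek* and both bright *Ptprb* probe sets lay too near the top for a centered set. Each was set beside the brightest probe sets, most of them dimmer than it. These had a median log2 ratio of -0.10, with 5th and 95th percentiles of -0.70 and 0.42. Around *Tie1* the median was 0.33, with percentiles of -0.25 and 0.76. All 4 lay close to the middle of their sets, but for *Tek* and *Ptprb* the set was not centered on their signal.

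Equal levels of the receptors are not shown by these values, since few probe sets as bright differed by 2-fold. Of 216 other probe sets at least as bright as *Tek*, with controls left out, 0 were higher by 2-fold in Prom1+ cells and 6 were lower by 2-fold. Among 1328 at least as bright as *Tie1*, 1 was higher and 23 were lower. The direction of the small ratios also depended on the scaling. For *Tek* the log2 ratio ran from -0.72 with equal trimmed means to 0.85 with the hybridization controls set equal, for *Tie1* from -0.21 to 1.36 and for *Ptprb* from -0.66 to 0.90 under the same alternatives.

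**Figure D1:**
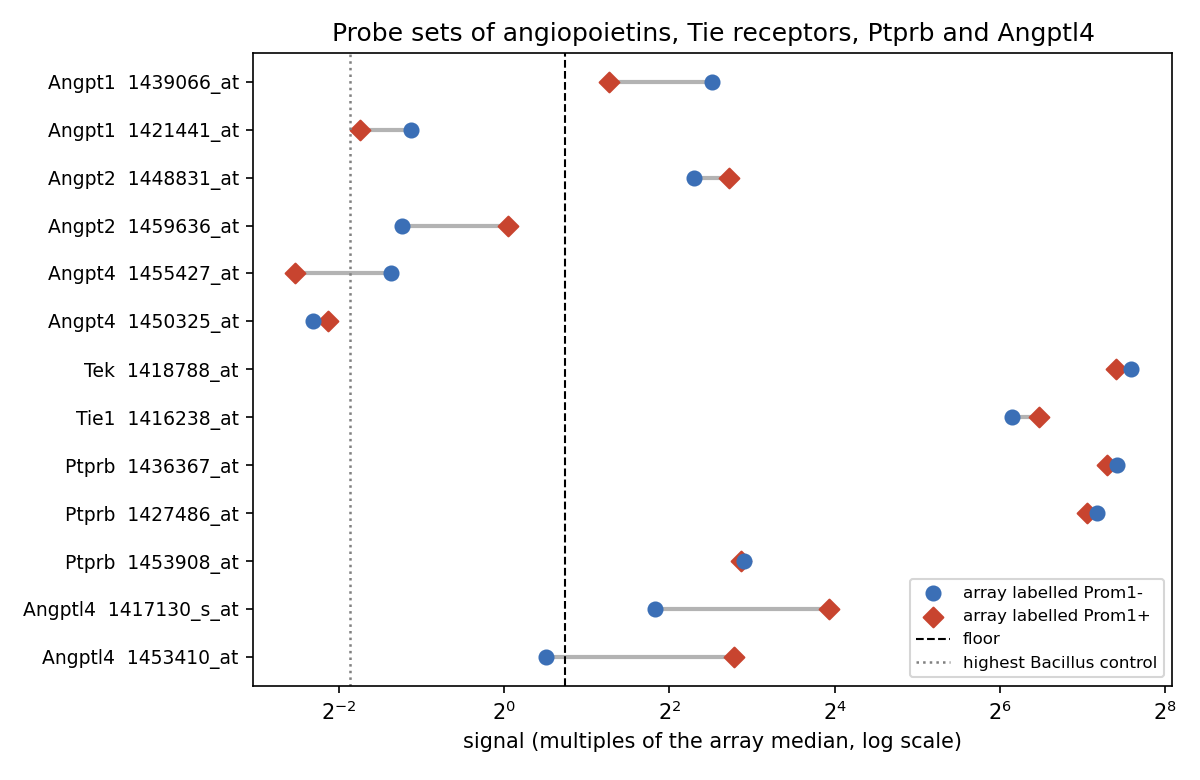
Signal of each member probe set on the array labelled Prom1- (blue circles) and the array labelled Prom1+ (red diamonds), in units of the array median on a log axis. The dashed line is the floor of 1.67 and the dotted line the highest Bacillus control, 0.276. The points of *Tek*, *Tie1* and *Ptprb* nearly coincide while those of *Angptl4* and the upper *Angpt1* probe set stand apart. Some points of *Angpt2* and *Angpt4* under the floor on both arrays stand apart as well.

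Of the ligands, *Angpt1* was lower in Prom1+ cells by the 2-fold rule and *Angpt2* was not. *Angpt1*, the Tie2 agonist, had 5.74 units in Prom1- cells against 2.41 in Prom1+ cells by the probe set 1439066_at, 2.38-fold lower, with a log2 ratio of -1.25. It was the 1 lower member among 6 measured genes by the 2-fold rule, by which 4.77% of all 10793 measured genes were lower in Prom1+ cells. Its second probe set, 1421441_at, had 0.459 against 0.298 units, under the floor on both arrays, and gives no fold. The ratio of *Angpt1* therefore rests on 1 probe set.

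Probe sets of like signal mostly went the other way from *Angpt1*. Their median log2 ratio was 0.72, with 5th and 95th percentiles of -1.41 and 2.20, and *Angpt1* lay 1.97 below that median and inside the range. Of these 1000, 388 were higher by 2-fold in Prom1+ cells and 80 were lower. The log2 ratio of *Angpt1* was below 0 under the 11 alternatives, from -1.94 after loess to -0.23 with the hybridization controls set equal. It was no longer 2-fold with those controls or with a floor of 200, since its Prom1+ signal lies under that higher floor.

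Transcripts of mural cells, the main known source of *Angpt1*, were lower in the same array. All 14 pericyte and smooth muscle markers were measured, 12 of them lower by 2-fold in Prom1+ cells and none higher. Their log2 ratios ran from -2.53 to -0.44 with a median of -1.63, and their summed signal was 1205 units in Prom1- cells against 398 in Prom1+ cells. The brightest were *Acta2*, *Rgs5* and *Tagln*, with 295, 206 and 206 units in Prom1- cells against 81.6, 95.9 and 43.6 in Prom1+ cells. The ratio of *Angpt1* lay within the range of these markers. Selection for CD31 should leave out mural cells and fibroblasts. Fibroblast markers were lower too, 6 of 9 measured and with a summed signal of 376 against 69.0 units, or 71.3 against 28.7 units without *Ptgds*, the brightest, as were microglial markers, 7 of 10 and with 239.7 against 107 units. Their part in the *Angpt1* difference was not tested, and in sorted bulk RNA fewer cells of a type and less RNA per cell cannot be told apart.

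*Angpt2*, the ligand stored by endothelium, was measured on both arrays and differed by less than 2-fold. Its brighter probe set had 4.94 units in Prom1- cells against 6.63 in Prom1+ cells, 1.34-fold higher, a log2 ratio of 0.42. This is below the median of 0.85 among probe sets of like signal. The other probe set had 0.425 against 1.04 units, under the floor on both arrays. The direction of *Angpt2* turned with the scaling, from -0.35 after loess to 1.45 with the hybridization controls set equal.

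Relative to one another, the ligands moved apart. The log2 ratio of *Angpt2* exceeded that of *Angpt1* by 1.68, so that *Angpt2* over *Angpt1* was 3.20-fold higher in the Prom1+ array than in the Prom1- array. A change of scale common to a whole array cancels in this comparison, although the shift with signal does not, and it rests on 1 probe set of each gene. *Angpt4*, the third angiopoietin, was not measured in either population. One of its probe sets had 0.389 against 0.174 units and the other 0.202 against 0.229 units, all under the floor. Control probe sets for Bacillus transcripts reached 0.276 units in Prom1- cells and 0.234 in Prom1+ cells.

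**Figure D2:**
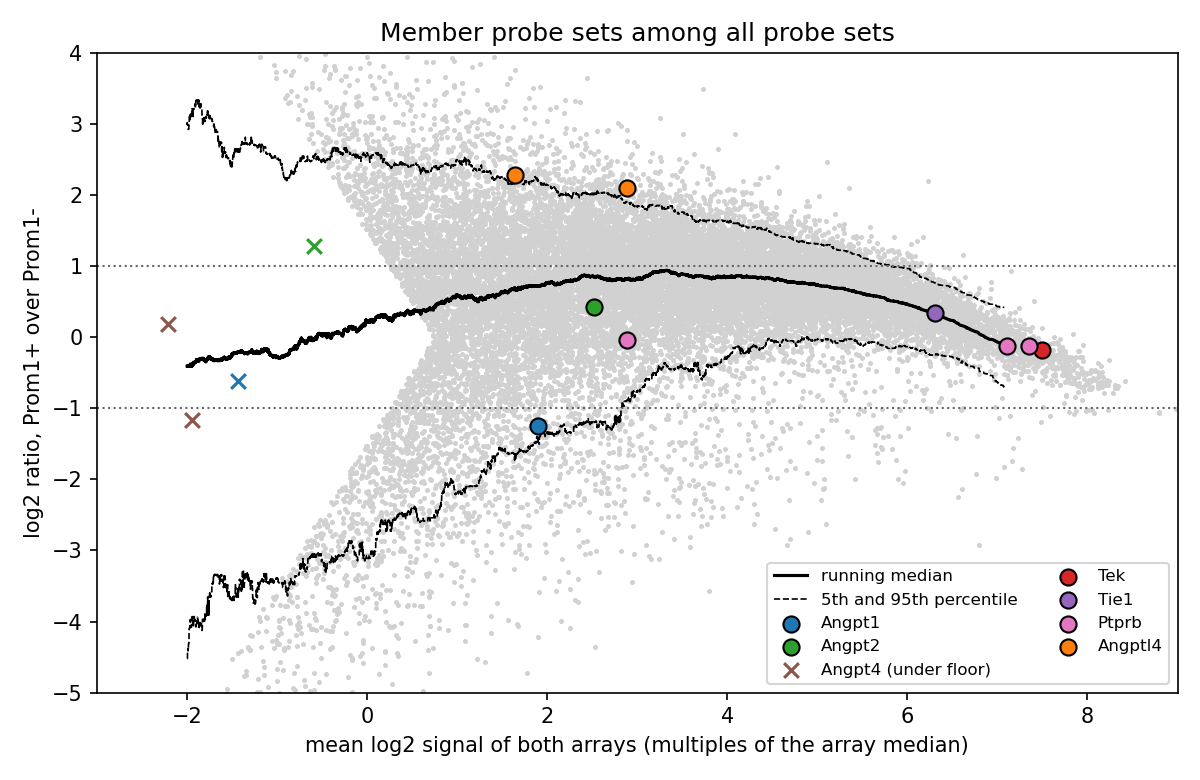
The log2 of Prom1+ over Prom1- signal (vertical) is plotted against the mean log2 signal in units of the array median (horizontal). Probe sets measured on 1 array or both are grey, members are colored and crosses are members under the floor on both. Solid and dashed lines are the running median and the 5th and 95th percentiles over 1000 probe sets, and dotted lines mark 2-fold. The brighter *Angptl4* probe set lies above the upper dashed line, *Angpt1* near the lower one and *Tie1* on the running median. *Tek* and both bright *Ptprb* probe sets lie beyond the end of these lines.

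*Angptl4*, the inhibitor of lipoprotein lipase, had the largest difference among the measured members. By the probe set 1417130_s_at it had 3.55 units in Prom1- cells against 15.3 in Prom1+ cells, 4.31-fold higher. By 1453410_at it had 1.42 units, under the floor, against 6.90, at least 4.12-fold higher. Both probe sets were thus at least 2-fold higher in the Prom1+ array, the second by a bound. *Angptl4* was the 1 higher member among 6 measured genes by the 2-fold rule, by which 28.2% of all measured genes were higher in Prom1+ cells.

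By its brighter probe set the difference of *Angptl4* was large for its signal. The log2 ratio of 1417130_s_at was 2.11, where the median around it was 0.82 with a 95th percentile of 1.90, and it lay above 97.6% of these probe sets. Around 1453410_at the median was 0.66 with a 95th percentile of 2.20, and no rank is given because its Prom1- signal was under the floor. The log2 ratio of *Angptl4* stayed above 1 under the 11 alternatives, from 1.30 after loess to 3.13 with the hybridization controls set equal. With the brighter probe set left out by its type the value was the bound of 1453410_at, 2.04, and the mean over both probe sets was 2.07. By the brighter probe set *Angptl4* was also called at a threshold of 3-fold.

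**Figure D3:**
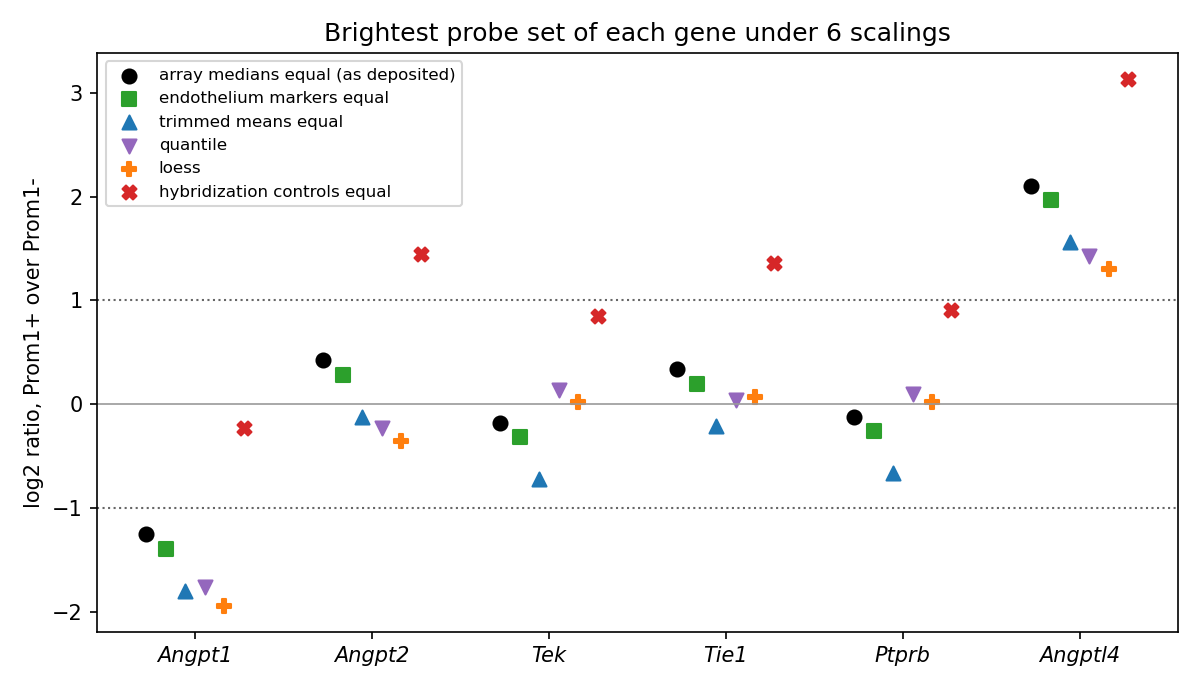
Log2 ratio of Prom1+ over Prom1- endothelium for the brightest probe set of the 6 measured genes under 6 scalings of the arrays, each with its own symbol, with dotted lines at 2-fold. *Angptl4* is above 2-fold under all 6, *Angpt1* is below 0 under all 6, and the points of the other 4 genes lie on both sides of 0.

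Lipoprotein lipase (*Lpl*), the enzyme that angiopoietin-like 4 inhibits, had 10.8 units in Prom1- cells against 4.50 in Prom1+ cells, 2.41-fold lower. Its second probe set had 1.75 against 0.822 units, close to or under the floor. The *Lpl* log2 ratio of -1.27 lay within the range of the mural markers, and a part of other cell types in it was not tested. The endothelial anchor of the enzyme, *Gpihbp1*, lay under the floor in both populations, at 0.119 against 0.696 units. *Lmf1*, needed for folding of the enzyme, had 4.09 against 10.01 units, 2.45-fold higher. Of 7 measured genes of a list of lipoprotein lipase and fatty acid uptake, 1 was at least 2-fold higher and 1 lower, and their median log2 ratio was 0.45, where that of all measured genes was 0.66.

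*Angptl4* is a known target of PPAR receptors, and other genes of that group were mostly higher in the Prom1+ array. Of 12 listed PPAR receptors, partners and classical targets 10 had a probe set and 8 were measured, and 6 of these were higher by 2-fold and none was lower, with a median log2 ratio of 1.21. Over all measured genes 28.2% were higher and the median was 0.66. The receptor *Ppard* had 9.22 against 24.5 units, 2.65-fold higher. The receptors *Ppara*, at 0.748 against 1.08 units, and *Pparg*, at 0.0688 against 0.553 units, were under the floor in both. *Cpt1a*, which admits fatty acids to mitochondria, had 22.6 against 51.2 units, 2.26-fold higher by its brightest probe set, and 1.68-fold and 1.53-fold by its other probe sets. *Acadl*, an enzyme of fatty acid oxidation, was 2.51-fold higher, at 20.3 against 51.0 units, and *Acadvl*, which acts on longer chains, was 2.16-fold higher, at 24.9 against 53.8 units. *Pdk4* and *Plin2*, the targets that share with *Angptl4* a strong response to fatty acids, differed by less than 2-fold, at 47.5 against 40.1 units and at 33.5 against 53.5 units. After loess the PPAR median was 0.47, where that of all measured genes was 0.06. Over all 8 pathway lists 1 gene was then at least 2-fold higher in place of 16. Whether PPAR activity differed between the populations was not tested.

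The genes that carry the Tie2 signal inside the cell were spread around the shift of the arrays. Of 22 adaptors, kinases and transcription factors 20 had a probe set and 19 were measured, of which 5 were at least 2-fold higher, none was lower and 14 differed by less. This share is close to the 28.2% of all measured genes, and their median log2 ratio was 0.86. The 4 brightest differed by less than 2-fold. *Iqgap1*, a scaffold of the cell cortex, had 159 against 118 units, *Foxo3* 96.7 against 87.4 units, *Grb2*, an adaptor of many receptor kinases, 74.2 against 82.9 units, and the phosphatase *Ptpn11* 55.7 against 85.8 units.

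The adaptors *Tnip2* and *Grb7* had the largest ratios of this list, whose share of higher genes was near that of all measured genes. After loess 1 gene over all 8 pathway lists was at least 2-fold higher, in place of 16. *Tnip2*, which binds Tie2 and restrains NF-kB, had 3.38 against 12.4 units, 3.66-fold higher. *Grb7*, an adaptor that docks on Tie2, had 8.28 against 28.2 units, 3.40-fold higher. *Pik3r2*, a regulatory subunit of PI3 kinase, had the lowest ratio with *Iqgap1*, at 3.37 against 2.31 units. *Foxo1*, the transcription factor that Tie2 holds inactive through AKT and that drives *Angpt2*, was chosen after its values were seen. It had 28.7 against 64.1 units, 2.23-fold higher by its brightest probe set, while the other 2 measured probe sets were 1.78-fold and 4.12-fold higher.

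Genes known to follow angiopoietin 1 or FOXO1 in endothelium mostly differed by less than 2-fold. Of 8 such genes 6 were measured, with 1 at least 2-fold higher, 1 at least 2-fold lower and 4 apart by less, and the median log2 ratio was 0.50. The Notch ligand *Dll4* had 6.06 against 12.8 units, 2.12-fold higher, and its other probe set was 2.10-fold higher. *Bmp2*, a growth factor, had 11.3 against 3.65 units, 3.10-fold lower, a log2 ratio of -1.63. This lay within the wide range of the mural markers, and a part of other cell types in it was not tested. *Klf2*, a factor of quiescent endothelium, had 114 against 126 units, *Cited2*, a transcriptional regulator, 47.3 against 62.2 units, *Pdgfb*, which recruits pericytes, 45.7 against 69.7 units and *Hbegf*, an EGF receptor ligand, 22.8 against 39.6 units. *Esm1* and *Apln*, genes of sprouting tip cells, were under the floor on both arrays. *Esm1* had 0.351 against 0.199 units.

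Surface and matrix partners of angiopoietins and Tie receptors mostly differed by less than 2-fold. Of 7 genes 6 were measured, 1 was at least 2-fold higher and none was lower, where 28.2% of all measured genes were higher and 4.77% lower. The integrin *Itga5*, a partner of Tie2 on fibronectin, was 2.15-fold higher, at 15.8 against 34.0 units, and its beta chain *Itgb1* had 24.6 against 35.1 units. *Itgav*, the other alpha chain, had 95.2 against 55.2 units, 1.73-fold lower, and *Itgb3* had 1.49 units, under the floor, against 2.50. Fibronectin (*Fn1*) had 162 against 153 units and the cadherin of endothelial junctions, *Cdh5*, 19.8 against 33.8 units. *Svep1*, a matrix protein that binds Tie1, lay under the floor in both populations, at 0.469 against 0.0435 units.

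Close relatives of the members were mostly dim. Of 4 other angiopoietin-like genes with a probe set, *Angptl6* alone was measured, at 1.37 units, under the floor, in Prom1- cells against 3.85 in Prom1+ cells, at least 2.30-fold higher. *Angptl1* had 0.423 against 0.159 units, *Angptl7* 0.543 against 0.934 units and *Angptl8* 0.0338 against 0.0527 units, all under the floor. *Ptprj*, a phosphatase of the same subtype as that of *Ptprb*, had 8.26 against 20.6 units, 2.49-fold higher, and by another measured probe set 2.27-fold. Its relative *Ptpro* was under the floor at 0.0811 against 1.19 units.

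**Figure D4:**
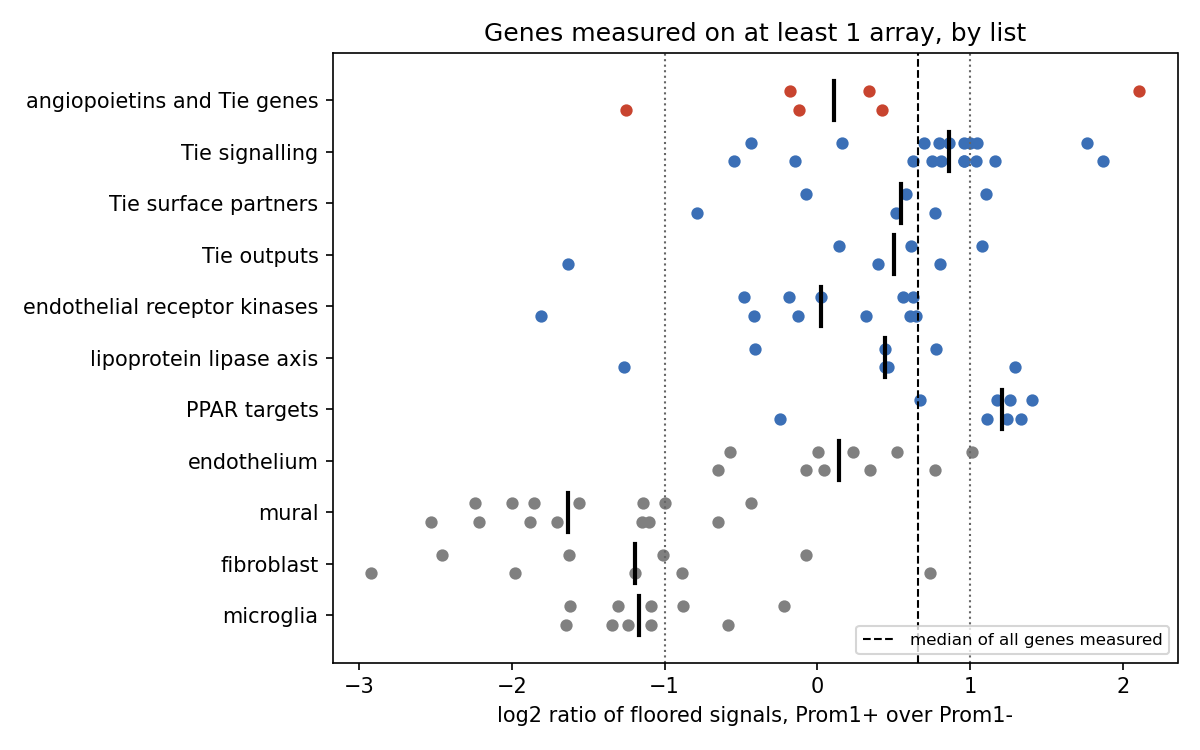
Log2 ratio of floored signals, Prom1+ over Prom1- endothelium, for each gene measured on at least 1 array (points), by list, with the list median as a black bar, the median of all measured genes as a dashed line and 2-fold as dotted lines. The angiopoietin and Tie genes (red) run from -1.25 to 2.11, the PPAR list has a median of 1.21 and the mural list one of -1.63.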

How the data were processed

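RNA of CD31+ Prom1- and CD31+ Prom1+ cells was amplified, labeled with biotin and hybridized by the authors, 1 array per population. The authors scaled each chip to a target of 500 and used GeneSpring for normalization. MAS5 is the tool in the submitters' processing notes, with no version. What was deposited is log2 of the signal relative to the median of the same array, with a median of 0 on both and a lowest value of -6.64. Depth has no meaning for arrays, and their number limits the precision.

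Gene names came from the annotation of the platform, with symbols updated through a mouse gene table. Of 45101 probe sets, 34958 had 1 gene symbol, 932 had several and were left out, and 9211 were not listed. Where a gene had several probe sets, that with the highest mean signal represented it. The floor of 100 on the target scale was carried to the deposited scale through the mean of the 2% trimmed means. Genes to be named were every member with every probe set, the sort genes, all genes of lists of 8 or fewer, of longer lists at most 4 by brightness and 2 by ratio in each direction, and of marker lists the 3 brightest. *Foxo1*, *Ppara*, *Pparg*, *Gpihbp1*, *Fabp4*, *Cd36* and *Lipg* were added for their role after their values were seen. The members and lists were chosen with earlier results of these data known. The counting rule was tested on simulated data. Alternatives were 3 other floors and none, other folds, 5 scalings and 2 choices of probe sets. Python 3.11.15, numpy 2.4.6, pandas 2.3.3, statsmodels 0.14.6 and matplotlib 3.10.9 were used.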

Additional observations from a re-analysis of the deposited data

How the results depend on the processing

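Each alternative changed 1 choice. *Angptl4* was counted as higher under all 13 alternatives and *Angpt1* as lower under 10. Of the 66 log2 ratios of single members under the alternatives, 49 moved by less than 0.54. The 17 that moved further all did so under a scaling of the arrays. A change of floor or of probe sets cannot move a gene far above the floor with 1 measured probe set, so the pooled count does not measure stability. Members at least 2-fold higher were 1, and 3 (*Angptl4*, *Angpt2* and *Tie1*) with the hybridization controls set equal. Members at least 2-fold lower were 1, and 0 with those controls, with a floor of 200 and with a threshold of 3-fold, and 2 (*Angpt1* and *Angpt4*) with no floor, where signals near the Bacillus controls enter. Over the 8 pathway lists 16 genes were at least 2-fold higher and 3 lower. Higher genes were 2 with equal trimmed means, 2 with quantile normalization, 1 after loess, 44 with the hybridization controls set equal, 34 at a threshold of 1.5-fold and 2 at 3-fold. Lower genes were 6 with equal trimmed means, 6 with quantile normalization, 7 after loess, 7 with no floor, 5 with the floor at the highest Bacillus control and 0 with the hybridization controls set equal. Over all measured genes 3045 were higher and 515 lower, against 865 and 863 with equal trimmed means, 673 and 847 with quantile normalization, 533 and 875 after loess, 8671 and 184 with the hybridization controls set equal, 5124 and 3388 with no floor and 3873 and 1650 with the floor at the Bacillus controls. The same trimmed mean moved the median probe set by -0.54 in log2 ratio and the hybridization controls moved it by 1.02. The cause of these moves was not tested. No paired analysis was possible because each population has 1 array. Signal over background limits what can be said of *Angpt4*, of the dimmer probe sets of *Angpt1* and *Angpt2* and of *Gpihbp1*.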

Other observations

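Other receptor tyrosine kinases of endothelium, listed with the coreceptor *Nrp1*, mostly differed by less than 2-fold. Of 12 listed, 11 were measured, 0 were higher by 2-fold in Prom1+ cells and 1 was lower. By the same rule 28.2% of all measured genes were higher and 4.77% lower. The log2 ratios of the list ran from -1.81 to 0.65 with a median of 0.02, where that of all measured genes was 0.66. The shares and median of all measured genes are not matched for signal, and several receptors of the list were bright. Among 1328 other probe sets at least as bright as *Tie1*, 1 was higher by 2-fold and 23 were lower. The receptors of VEGF, *Flt1* and its coreceptor *Nrp1*, had 229 against 172 units and 151 against 133 units. *Igf1r* had 96.9 against 98.5 units and *Flt4*, the receptor of lymphangiogenic ligands, 56.6 against 86.0 units. The 1 lower gene was *Axl*, a receptor of the ligand GAS6, at 13.8 against 3.93 units, 3.50-fold lower. The *Axl* ratio lay within the range of the mural markers, which is wide, from -2.53 to -0.44. A part of other cell types in it was not tested. *Fgfr1*, a receptor of fibroblast growth factors, had 8.26 against 5.93 units, and the ephrin receptors *Epha2* and *Ephb4* had 4.83 against 7.56 units and 16.9 against 26.1 units. With the hybridization controls set equal the median of this list was 1.05, where that of all measured genes was 1.64.

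Of the fatty acid carriers of the lipoprotein lipase list, those measured on both arrays differed by less than 2-fold. The transporters *Slc27a1* and *Slc27a4* had 29.1 against 39.5 units and 6.02 against 10.3 units, and the binding protein *Fabp5* had 6.40 against 4.83 units. *Fabp4* had 0.256 units, under the floor, in Prom1- cells against 2.28 in Prom1+ cells, at least 1.36-fold higher. The fatty acid receptor *Cd36*, at 1.55 against 0.300 units, and the endothelial lipase *Lipg*, at 0.744 against 0.0168 units, were under the floor on both arrays.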
